A study of Homo sapiens with 12 samples.

Results

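The isocitrate dehydrogenases and the proteins that make, export and spend citrate around them were followed as 9 genes: CS, IDH1, IDH2, IDH3A, IDH3B, IDH3G, SLC25A1, ACLY and PCK2. They were picked by symbol from a raw count table of 45478 genes, and all 9 passed the filter on low counts, with 826 to 30305 reads per gene and library. The choice rested on measured values, since IDH1 was higher in the sunitinib-resistant 786-O line than in its parent and was not in the resistant A498 line. Differences of either resistant line from its own parent are therefore given as a description, with a standard error (SE) and without a p-value, and so are all differences of IDH1. mRNA had been sequenced from 4 groups of cultured human clear cell renal cell carcinoma (ccRCC) cells with 3 libraries each. 786-O and A498 were the untreated parental lines, both established from kidney tumours. A sunitinib-resistant line had been grown out of each, in 4 μM sunitinib for 786-O and in 2 μM for A498, over 4 months or past 20 passages. Sunitinib inhibits several receptor tyrosine kinases. The groups are named 786-O, resistant 786-O, A498 and resistant A498 below. All groups were grown in the same glucose- and glutamine-containing medium with serum, the labels give the treatment of the sequenced cells as none (each title also holds a code with the letters veh, which is not explained), and each resistant line is a single selected culture.

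Total counts per library ran from 40845091 to 47972092 in 786-O and resistant 786-O and from 20042519 to 34951585 in A498 and resistant A498. Each group had a batch label of its own, so batch and group cannot be told apart. The libraries labelled resistant A498 did not carry the A498 profile. Among genes with at least 10 CPM (reads scaled to normalized library size) in A498 and at most 3 reads in every 786-O library, of which there were 62, the median level in resistant A498 was only 0.362% of the A498 level. The reverse pattern was found in 33 genes, and these stood at a median of 94.6% of the 786-O level in resistant A498 and 96.4% in resistant 786-O. Resistant A498 is therefore compared below with 786-O as well as with A498, and each comparison that involves resistant A498 rests on these libraries. Their median correlation of log2 CPM was 0.982 with resistant 786-O, 0.951 with 786-O and 0.870 with A498. Likeness of the 2 resistant groups is therefore not read as the same change in separate lines. Replicate 2 of resistant 786-O stood apart from the other two of its group, with a chi-square per gene of 43.75 to 43.97 against 1.55 to 7.20 for every other replicate pair. Of 7 renal carcinoma markers, 6 were above 3 reads in 786-O, resistant 786-O and resistant A498, with CA9 at or under 3 reads, and 7 were above it in A498. Markers of T cells, 8 in all, summed to at most 0.664 CPM in any library.

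Citrate synthase (CS) joins acetyl-CoA and oxaloacetate to citrate in the mitochondrial matrix, and isocitrate is oxidized to 2-oxoglutarate by 3 enzymes. IDH3 is a mitochondrial NAD-linked enzyme built from the catalytic subunit IDH3A with IDH3B and IDH3G, and it works in the forward direction of the Krebs cycle. IDH2 in mitochondria and IDH1 in the cytosol and peroxisomes are NADP-linked, run in either direction, and can turn 2-oxoglutarate from glutamine back into isocitrate and citrate. SLC25A1 carries citrate out of mitochondria, and ACLY cleaves it in the cytosol to acetyl-CoA for lipid synthesis and oxaloacetate. PCK2 is the mitochondrial phosphoenolpyruvate carboxykinase, which draws oxaloacetate out of the cycle. ccRCC cells, which commonly lack functional VHL, are known for the use of glutamine carbon to make citrate and lipid.

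On GRCh38 (GENCODE annotation), CS lies at chr12:56271699-56300391 on the minus strand, IDH1 at chr2:208236229-208266074 (minus), IDH2 at chr15:90083045-90102477 (minus), IDH3A at chr15:78131498-78171945 (plus) and IDH3B at chr20:2658395-2664219 (minus). IDH3G lies at chrX:153785766-153794512 (minus), SLC25A1 at chr22:19175581-19178739 (minus), ACLY at chr17:41866917-41930542 (minus) and PCK2 at chr14:24094053-24110598 (plus). IDH2 and IDH3A share chromosome 15, and the others lie on a chromosome each. Upstream sequence is shown for IDH1, whose level differed most between groups, and for IDH3A and IDH3B, subunits of 1 enzyme whose levels moved apart. Each is the stretch from 250 to 51 bases before a RefSeq transcription start (GRCh38.p14), 200 bases written 5′ to 3′ on the strand of the gene. The IDH1 window is chr2:208255122-208255321, the IDH3A window chr15:78149112-78149311 and the IDH3B window chr20:2664267-2664466. Of these, 108 bases of the IDH1 window are exon of the antisense gene IDH1-AS1, and 115 of the IDH3B window are exon of IDH3B-DT. Capitals mark matches on either strand to any of 6 motifs searched: the CCAAT box (CCAAT), the GC box (GGGCGG), the E-box (CACGTG) and the cores of a cyclic AMP element (TGACGT), a sterol element (TCACNCC) and an amino acid response element (TGATGNA).
IDH1: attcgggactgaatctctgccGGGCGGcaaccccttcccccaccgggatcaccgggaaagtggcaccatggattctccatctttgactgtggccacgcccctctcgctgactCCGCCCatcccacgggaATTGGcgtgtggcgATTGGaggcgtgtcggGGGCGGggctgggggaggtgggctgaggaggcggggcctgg
IDH3A: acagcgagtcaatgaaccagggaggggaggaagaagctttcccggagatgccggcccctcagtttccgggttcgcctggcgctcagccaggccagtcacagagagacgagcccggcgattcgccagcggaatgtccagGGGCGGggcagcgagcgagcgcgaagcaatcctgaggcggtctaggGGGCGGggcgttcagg
IDH3B: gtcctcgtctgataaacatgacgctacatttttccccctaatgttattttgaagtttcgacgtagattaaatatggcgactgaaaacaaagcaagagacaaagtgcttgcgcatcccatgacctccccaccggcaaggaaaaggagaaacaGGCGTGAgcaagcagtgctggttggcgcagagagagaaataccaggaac
The IDH1 window held 3 matches to the GC box GGGCGG and 2 to CCAAT, and the IDH3A window held 2 to GGGCGG. The IDH3B window held neither and had 1 match to TCACNCC, the core of a sterol element. Of 35115 windows of the same length, 35% held the GC box, 27.4% the CCAAT box and 10.7% the sterol core. The E-box, the cyclic AMP core and the amino acid response core, none of which was found in these 3 windows, were in 4.51%, 4.86% and 6.89%. A match is a string of letters and was not tested for binding. IDH1 has a second RefSeq start, whose window at chr2:208254509-208254708 held 1 GGGCGG and no CCAAT.

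IDH1, the cytosolic NADP-linked enzyme, was low in 786-O and higher in every other group. Its normalized level was 104, 105 and 107 CPM in the 3 libraries of 786-O and 254, 230 and 244 CPM in resistant 786-O. It was 378, 357 and 339 CPM in A498 and 325, 325 and 326 CPM in resistant A498. The order was A498, resistant A498, resistant 786-O and 786-O, and no library of 1 group overlapped the group next to it. Between the parental lines, IDH1 was lower in 786-O by a log2 fold change of -1.76 ± 0.05 (SE). A fit of the 786-O and A498 libraries alone gave -1.81. The changes that chose IDH1 were 1.20 ± 0.05 in resistant over parental 786-O and -0.14 ± 0.05 in resistant over parental A498 on the log2 scale. Against 786-O, the resistant A498 libraries held 3.09-fold as much IDH1 and those of resistant 786-O 2.30-fold. The direction of the IDH1 difference in resistant A498 therefore turns on which parental line is the reference, since A498 held 358 ± 19.4 CPM (SD, n = 3). IDH1-AS1, on the opposite strand, shares 94 bases with the exons of IDH1 (2.0% of them) and had 6 to 55 reads per library.

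**Figure D1:**
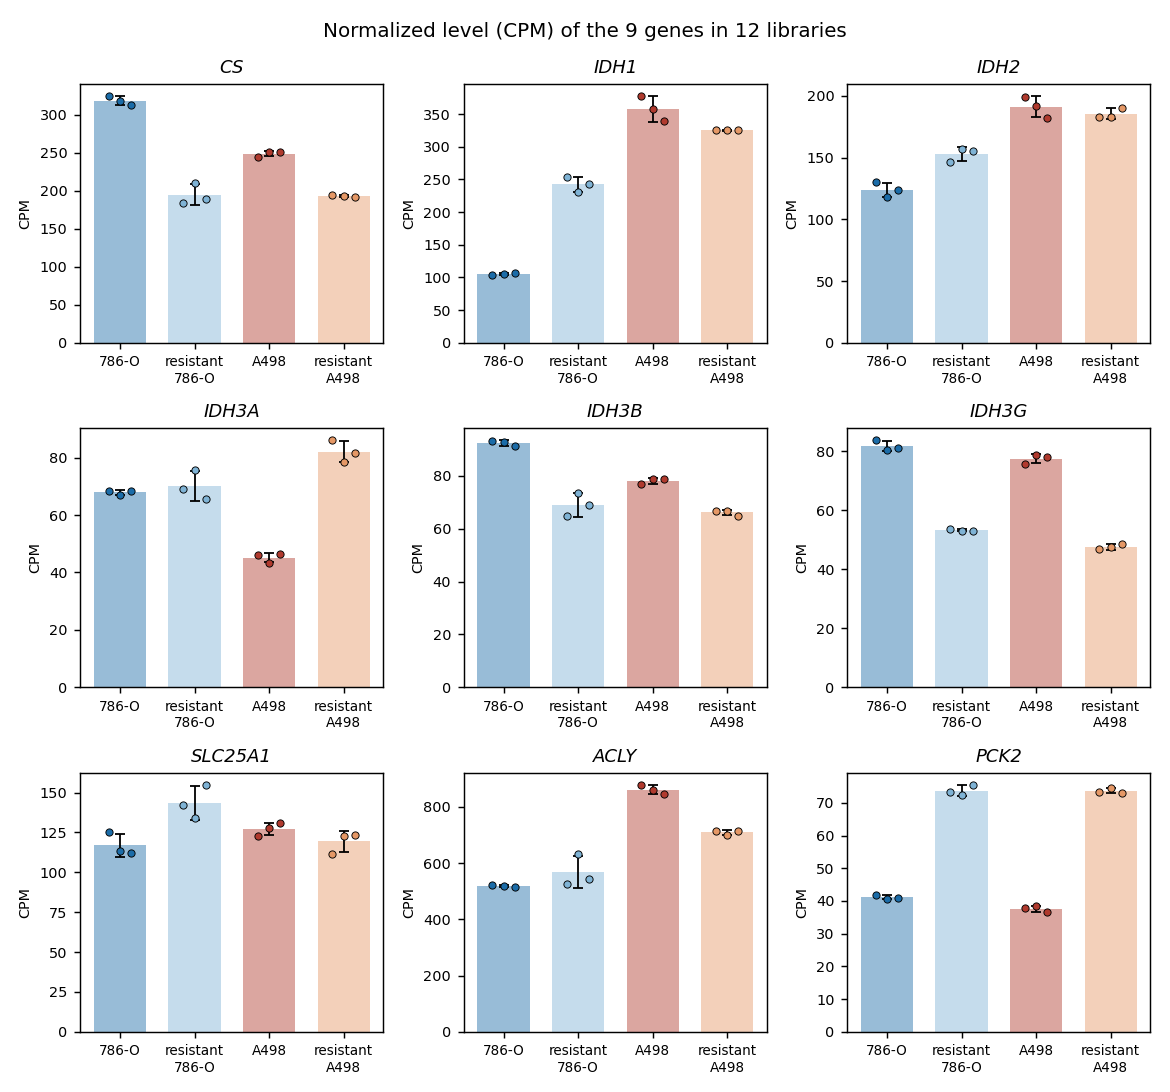
Normalized level in CPM (linear axis from 0) of each of the 9 genes in the 12 libraries. Bars are means of 3 libraries, error bars are SD and points are libraries. IDH1 stands at 105 CPM in 786-O and 243 to 358 CPM in the other groups, and PCK2 at 73.7 CPM in both resistant groups against 41.2 and 37.6 CPM in the parental lines.

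IDH2, the mitochondrial NADP-linked enzyme, had the same order of group means over a narrower range. It was 130, 119 and 124 CPM in 786-O, 147, 157 and 156 CPM in resistant 786-O, 200, 192 and 182 CPM in A498 and 183, 183 and 191 CPM in resistant A498. A498 and resistant A498 overlapped, and the other neighbours in that order did not. IDH2 differed between 786-O and A498 by -0.63 ± 0.05 log2, with an adjusted p of 1.9e-08 from the quasi-likelihood test of edgeR, adjusted by Benjamini-Hochberg over 19929 genes (below, edgeR adjusted p). Resistant A498 was above 786-O by 0.58 ± 0.05 (edgeR adjusted p = 9.2e-08) and above resistant 786-O by 0.28 ± 0.05 (edgeR adjusted p = 0.00037). The changes from the labelled parent were 0.31 ± 0.05 in resistant 786-O and -0.04 ± 0.05 in resistant A498. Once the trend with GC content and exon length was removed, these changes were 0.16 and 0.15 in the same order.

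The balance between the 2 NADP-linked genes and the NAD-linked subunits can be read within a library, without normalization between libraries. IDH1 and IDH2 together took 48.6% ± 0.37 (SD, n = 3) of the reads of the 5 IDH genes in 786-O, 67.3% ± 1.4 in resistant 786-O, 73.2% ± 1.2 in A498 and 72.3% ± 0.44 in resistant A498. IDH1 alone took 22.4% ± 0.51, 41.2% ± 2.1, 47.7% ± 0.95 and 46.0% ± 0.30 in the same order. The ratio of IDH1 to IDH2 reads was 0.851 ± 0.044 in 786-O, the one group in which it was below 1, and 1.58 ± 0.13 in resistant 786-O, 1.87 ± 0.020 in A498 and 1.75 ± 0.036 in resistant A498. These shares depend on transcript length and are not amounts of enzyme. A ratio within a library also does not remove a trend with GC content and exon length. With that trend removed, resistant A498 exceeded resistant 786-O by 0.323 log2 for IDH1 and 0.468 for IDH2, against 0.425 and 0.277 before. The order of these 2 groups in the IDH1 to IDH2 ratio therefore depends on that trend. They are given without a test, since an exact permutation test of 3 libraries against 3 cannot go below p = 0.1.

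The subunits of IDH3 did not move together. IDH3A, the catalytic subunit, was at 68.2, 66.9 and 68.5 CPM in 786-O and 69.0, 75.7 and 65.6 CPM in resistant 786-O, which overlap. It was 45.9, 43.4 and 46.3 CPM in A498, the lowest group, and 86.0, 78.6 and 81.7 CPM in resistant A498, the highest. IDH3A was higher in 786-O than in A498 by 0.58 ± 0.06 log2 (edgeR adjusted p = 2.2e-07) and higher in resistant A498 than in 786-O by 0.28 ± 0.06 (edgeR adjusted p = 0.0006). Resistant A498 exceeded resistant 786-O by 0.23 ± 0.06 (edgeR adjusted p = 0.0041), and this was 0.11 with an edgeR adjusted p of 0.15 once the GC content and exon length trend was removed. The changes from the labelled parent were 0.86 ± 0.06 in resistant A498 and 0.05 ± 0.06 in resistant 786-O, the latter -0.01 without replicate 2 of resistant 786-O. Over 2608 bases, 38.2% of its exonic length, IDH3A overlaps ACSBG1 on the opposite strand. ACSBG1 was at 40.5 ± 1.0 CPM in 786-O, 34.7 ± 3.9 in resistant 786-O, 26.1 ± 0.97 in A498 and 45.1 ± 1.6 in resistant A498 (SD, n = 3). It was thus also lowest in A498 and highest in resistant A498, and although the reads were counted by strand, its part in the IDH3A values was not tested.

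IDH3B and IDH3G, the other subunits, were highest in 786-O and lowest in resistant A498. IDH3B was at 93.1, 92.8 and 91.2 CPM in 786-O, 64.6, 73.5 and 68.9 CPM in resistant 786-O, 76.8, 78.8 and 78.8 CPM in A498 and 66.8, 66.7 and 64.9 CPM in resistant A498. The resistant groups overlapped, with a difference of resistant A498 from resistant 786-O of -0.06 (95% interval -0.17 to 0.04, edgeR adjusted p = 0.33). With the GC content and exon length trend removed it was 0.11 and passed (edgeR adjusted p = 0.046). IDH3G was at 83.7, 80.6 and 81.3 CPM in 786-O, 53.6, 53.1 and 53.0 CPM in resistant 786-O, 75.8, 78.8 and 77.9 CPM in A498 and 46.9, 47.4 and 48.6 CPM in resistant A498. Both parental groups were above both resistant groups for either gene, and the share of all genes with this order was not counted.

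Resistant A498 was below 786-O by -0.48 ± 0.05 log2 for IDH3B (edgeR adjusted p = 6.4e-07) and by -0.78 ± 0.04 for IDH3G (edgeR adjusted p = 7e-10). 786-O was above A498 by 0.24 ± 0.05 for IDH3B (edgeR adjusted p = 0.00037), and IDH3G differed between these lines by 0.08 (95% interval -0.01 to 0.17, edgeR adjusted p = 0.099). Removal of the GC content and exon length trend gave 0.34 for the latter with an edgeR adjusted p of 1.2e-06. Between the resistant groups, IDH3G was lower in resistant A498 by -0.16 ± 0.04 (edgeR adjusted p = 0.0068), which turned to 0.16 with the trend removed and had an edgeR adjusted p of 0.062 without a filter on low counts. Changes from the labelled parent were -0.42 ± 0.05 and -0.24 ± 0.05 for IDH3B in resistant 786-O and resistant A498, and -0.62 ± 0.04 and -0.70 ± 0.04 for IDH3G. With the trend removed, the IDH3B value in resistant A498 was -0.07, and those of IDH3G were -0.95 in resistant 786-O and -0.45 in resistant A498. IDH3G shares 267 bases, 9.89% of its exonic length, with SSR4 on the opposite strand. SSR4 was at 150 ± 4.0, 116 ± 13, 141 ± 2.2 and 96.2 ± 0.52 CPM in 786-O, resistant 786-O, A498 and resistant A498, the same order of groups as IDH3G, and its part in the IDH3G values was not tested.

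Within libraries, the ratio of IDH3A to IDH3B reads was 0.733, 0.720 and 0.751 in 786-O and 0.598, 0.551 and 0.588 in A498. It was 1.07, 1.03 and 0.952 in resistant 786-O and 1.29, 1.18 and 1.26 in resistant A498. All 6 libraries of the resistant groups were above all 6 parental ones, and how often ratios of other gene pairs do so was not counted. IDH3A over IDH3G separated the groups further, at 0.829 ± 0.014 in 786-O, 1.32 ± 0.098 in resistant 786-O, 0.584 ± 0.029 in A498 and 1.73 ± 0.097 in resistant A498 (SD, n = 3). IDH3B over IDH3G ranged less, from 1.01 ± 0.0068 in A498 to 1.39 ± 0.048 in resistant A498. With the GC content and exon length trend removed, the differences of resistant A498 from 786-O still ran apart, at 0.27 for IDH3A, -0.44 for IDH3B and -0.79 for IDH3G. Those of resistant A498 from resistant 786-O did not, at 0.11 for IDH3A, 0.11 for IDH3B and 0.16 for IDH3G. The gap in these ratios between the resistant groups was thus not kept with the trend removed.

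**Figure D2:**
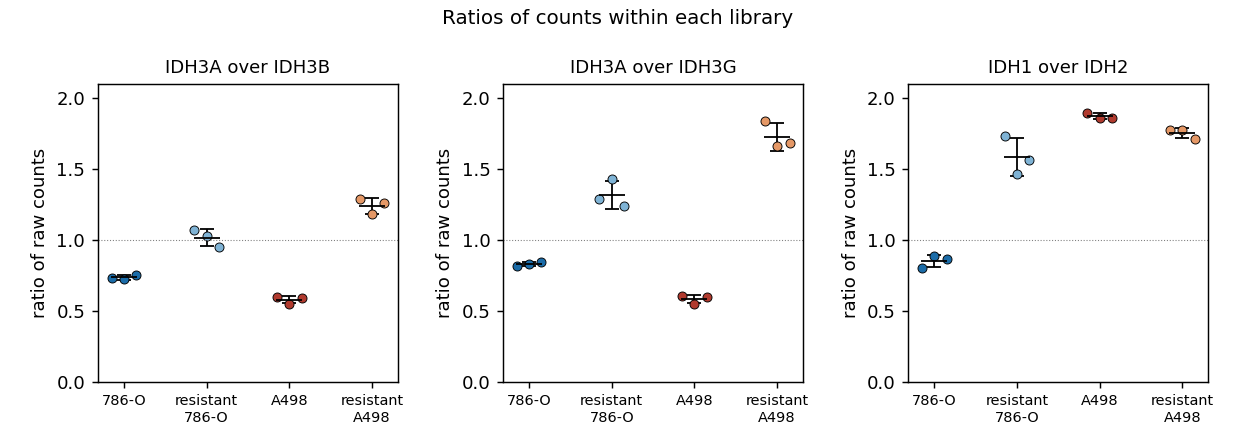
Ratios of raw read counts within each library for IDH3A over IDH3B, IDH3A over IDH3G and IDH1 over IDH2 (linear axes from 0, dotted line at 1). Points are the 3 libraries of a group, and horizontal marks and error bars are means and SD. IDH3A over IDH3B has means of 0.735 and 0.579 in 786-O and A498 and of 1.02 and 1.24 in resistant 786-O and resistant A498, and IDH1 over IDH2 is below 1 in 786-O alone.

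CS, the entry step of the cycle, was highest in 786-O and lowest in the resistant groups. It was at 325, 319 and 313 CPM in 786-O, 245, 252 and 251 CPM in A498, 184, 211 and 190 CPM in resistant 786-O and 195, 193 and 191 CPM in resistant A498. The resistant groups overlapped, and their difference was -0.01 log2 (95% interval -0.12 to 0.09, edgeR adjusted p = 0.85). 786-O was above A498 by 0.36 ± 0.05 (edgeR adjusted p = 7.7e-06), and resistant A498 was below 786-O by -0.72 ± 0.05 (edgeR adjusted p = 7e-09). Changes from the labelled parent were -0.71 ± 0.05 in resistant 786-O and -0.37 ± 0.05 in resistant A498. The ratio of IDH1 to CS reads within a library was 0.331 ± 0.0098 in 786-O, 1.25 ± 0.15 in resistant 786-O, 1.44 ± 0.098 in A498 and 1.68 ± 0.019 in resistant A498. CS shares 220 bases, 3.44% of its exonic length, with a gene on the same strand that has no counts here. It also shares 28 bases with CNPY2-AS1 on the opposite strand, which had 1325 to 3956 reads per library. The part of either gene in the CS values was not tested.

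SLC25A1, the mitochondrial citrate carrier, varied least among the 9 genes and had the least stable direction. It was at 125, 114 and 112 CPM in 786-O, 142, 134 and 155 CPM in resistant 786-O, 123, 127 and 131 CPM in A498 and 112, 123 and 123 CPM in resistant A498. Only resistant 786-O was clear of the group next to it, and the other neighbours overlapped. 786-O differed from A498 by -0.12 ± 0.06 log2 (95% interval -0.25 to 0.01, edgeR adjusted p = 0.09). That difference passed the threshold under 7 alternatives in the same direction, among them the fit without 786-O replicate 1 (-0.16, edgeR adjusted p = 0.041), and became 0.23 with the GC content and exon length trend removed. Resistant A498 differed from 786-O by 0.03 (95% interval -0.10 to 0.16, edgeR adjusted p = 0.69), and by 0.18 with an edgeR adjusted p of 0.019 under scaling to library size alone. Resistant A498 was below resistant 786-O by -0.27 ± 0.06 (edgeR adjusted p = 0.0026), which turned to 0.14 with the trend removed. The change of resistant from parental 786-O was 0.30 ± 0.06 and turned to -0.23 with that trend removed, and resistant A498 changed from A498 by -0.09 ± 0.06. The exons of SLC25A1 have the highest GC content of the 9 genes, 65.6%, against 43.1% for IDH1.

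ACLY, which cleaves the exported citrate, was the most abundant of the 9 transcripts. It was at 522, 518 and 516 CPM in 786-O, 524, 633 and 545 CPM in resistant 786-O, 877, 858 and 845 CPM in A498 and 715, 700 and 712 CPM in resistant A498. The group order matched that of IDH1, with 786-O and resistant 786-O separated by little. 786-O was below A498 by -0.73 ± 0.06 log2 (edgeR adjusted p = 1.5e-08), and resistant A498 was above 786-O by 0.45 ± 0.06 (edgeR adjusted p = 5.8e-06) and above resistant 786-O by 0.32 ± 0.06 (edgeR adjusted p = 0.00033). Changes from the labelled parent were 0.13 ± 0.06 in resistant 786-O and -0.28 ± 0.06 in resistant A498, and the former was 0.04 without replicate 2 of resistant 786-O, the library at 633 CPM. The ratio of ACLY to CS reads was 1.63 ± 0.020 in 786-O, 2.90 ± 0.082 in resistant 786-O, 3.46 ± 0.12 in A498 and 3.67 ± 0.051 in resistant A498.

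PCK2, the exit from the cycle at oxaloacetate, was higher in every resistant library than in every parental one. Of all genes tested, 25.6% had all 6 resistant libraries above all 786-O libraries. The share that was also above all A498 libraries was not counted. It was at 41.9, 40.7 and 40.9 CPM in 786-O, 37.8, 38.4 and 36.6 CPM in A498, 73.3, 72.3 and 75.5 CPM in resistant 786-O and 73.4, 74.6 and 73.1 CPM in resistant A498. The resistant groups had indistinguishable means, with a 95% interval of their log2 difference from -0.09 to 0.09 (edgeR adjusted p = 1), although removal of the GC content and exon length trend put resistant A498 0.29 higher (edgeR adjusted p = 9.1e-05). Resistant A498 was above 786-O by 0.84 ± 0.04 (edgeR adjusted p = 4e-10), or 1.79-fold. 786-O exceeded A498 by 0.13 ± 0.04 (edgeR adjusted p = 0.014), a difference that no longer passed under 7 alternatives, with values from 0.05 under scaling to library size alone (edgeR adjusted p = 0.32) to 0.12 without A498 replicate 3 (edgeR adjusted p = 0.053). Changes from the labelled parent were 0.84 ± 0.04 in resistant 786-O and 0.97 ± 0.04 in resistant A498, the former 0.51 with the trend removed. The cytosolic counterpart PCK1 had too few reads to pass the filter.

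**Figure D3:**
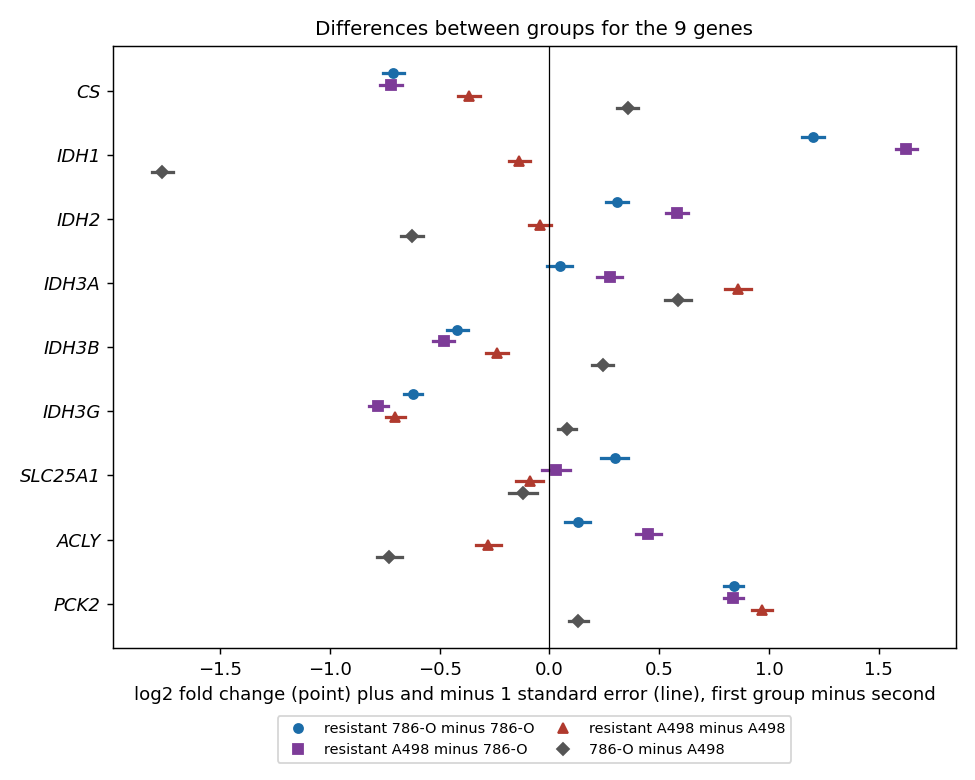
Log2 fold change of each of the 9 genes in 4 comparisons, with points for estimates and lines for 1 SE on either side, and 0 as the vertical line. The comparisons share libraries. IDH1 lies at 1.20 and 1.63 against 786-O and at -0.14 against A498, whereas PCK2 lies between 0.84 and 0.97 in all comparisons of a resistant with a parental group.

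Over the 9 genes, 7 passed the threshold between 786-O and A498, 4 higher in 786-O (CS, IDH3A, IDH3B and PCK2) and 3 lower (IDH1, IDH2 and ACLY), against 74.2% of all genes tested (38.2% higher and 36.1% lower). That share is close to the background, and the median log2 fold change of the 9 genes was 0.08 against 0.04 for all genes. In resistant A498 against 786-O, 8 of 9 passed, 5 higher and 3 lower, against a background of 63.6% (31.6% higher and 32.1% lower), with a median of 0.28 against 0.00. In resistant A498 against resistant 786-O, 6 of 9 passed, 4 higher and 2 lower, against 46.1% (23% in each direction), with a median of 0.00 against -0.03. All 9 genes also had at least 10 counts in every library. Under that stricter filter, the background shares of these comparisons were 76.1%, 69.8% and 54%, in the order given. IDH1 is counted in all 3 comparisons although these groups led to its choice. In the comparisons that chose the members, 7 of 9 passed in resistant against parental 786-O (background 68.5%) and 7 of 9 in resistant against parental A498 (background 72.7%), and nothing is read from these counts. Scaling to library size alone moved the median of all genes by 0.15 in resistant A498 against 786-O and by 0.14 in resistant against parental 786-O, and it kept the direction of each of the 9 genes in both comparisons. P-values measure only the spread between these libraries, since separate cultures are not stated for them.

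Levels of different genes were compared per kilobase of annotated exon. In 786-O, CPM per kilobase was 99.6 ± 0.60 for ACLY, 58.5 ± 3.5 for SLC25A1, 49.8 ± 0.93 for CS and 44.5 ± 2.1 for IDH2, and it was 22.4 ± 0.25 for IDH1. In resistant A498, it was 136 ± 1.5 for ACLY, 69.3 ± 0.14 for IDH1, 66.6 ± 1.5 for IDH2, 59.7 ± 3.3 for SLC25A1 and 30.2 ± 0.28 for CS. IDH1 thus stood below CS and IDH2 in 786-O and above both in resistant A498 on this scale. IDH3A was at 6.63 to 12.03 CPM per kilobase over the 4 group means, below IDH3B (25.8 to 36.0) and IDH3G (17.6 to 30.3) throughout. These levels depend on the transcript taken. Per kilobase of the longest transcript, CS in 786-O was 104 and SLC25A1 73.2, the reverse of their order above.

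The genes whose levels ran closest to those of IDH1 over the 12 libraries were TTC28, ACSS2, ACSF2, TLL2 and DNMT3B. Closeness was the root mean square difference of log2 CPM after each gene was centred on its own mean, over the 10085 genes that averaged 10 CPM or more, and it ran from 0.117 for TTC28 to 0.141 for DNMT3B. ACSS2, the cytosolic acetyl-CoA synthetase that makes acetyl-CoA from acetate, was at 20.5 ± 0.26 CPM in 786-O, 45.6 ± 1.2 in resistant 786-O, 56.3 ± 1.4 in A498 and 60.5 ± 1.1 in resistant A498. DNMT3B, a DNA methyltransferase, was at 10.3 ± 0.17, 21.97 ± 2.0, 41.6 ± 1.6 and 32.8 ± 1.4 CPM in the same order. For PCK2, the closest were PEPD, WASHC2A, EMC10, LPIN2 and TBC1D2B, with differences of 0.0486 to 0.0724. PEPD, a dipeptidase that frees proline, was at 61.5 ± 3.1 CPM in 786-O, 108 ± 4.6 in resistant 786-O, 55.5 ± 1.1 in A498 and 103 ± 2.8 in resistant A498. Over the 4 group means in place of the 12 libraries, 3 of the 5 genes for IDH1 (TTC28, TLL2 and ACSF2) and 2 of the 5 for PCK2 (PEPD and WASHC2A) were kept.

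Other enzymes and carriers of citrate metabolism were read from lists of 13 Krebs cycle enzymes after isocitrate, 8 cytosolic enzymes of malate, NADPH and acetyl-CoA, 11 of carbon entry into the cycle (10 tested) and 7 mitochondrial carriers. Of the Krebs cycle enzymes, 10 fell and 2 rose in resistant against parental 786-O, and 6 fell and 3 rose in resistant A498 against 786-O. Against A498, its labelled parent, 8 rose and 4 fell in resistant A498. Against 786-O, OGDH, a subunit of the 2-oxoglutarate dehydrogenase that follows IDH3, rose by 0.74 ± 0.06 log2 in resistant 786-O and 0.61 ± 0.06 in resistant A498. MDH2, the malate dehydrogenase of mitochondria, fell by 0.33 ± 0.06 and 0.53 ± 0.06. In resistant A498 against A498, OGDH was at 0.17 ± 0.06 and MDH2 at -0.33 ± 0.06. OGDHL, a related gene, was at 0.912 ± 0.28 CPM in 786-O, 17.9 ± 4.7 in resistant 786-O, 1.16 ± 0.42 in A498 and 24.3 ± 1.3 in resistant A498. SDHD, a succinate dehydrogenase subunit, fell in resistant 786-O by 0.85 ± 0.08 and was at 0.18 ± 0.08 in resistant A498 against 786-O, which did not pass (edgeR adjusted p = 0.073). The comparisons with 786-O share its libraries.

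Of the cytosolic enzymes, 4 rose and 1 fell in resistant 786-O and 5 rose and 2 fell in resistant A498, both against 786-O. Against A498, 3 rose and 4 fell in resistant A498. ACSS2 rose by 1.16 ± 0.05 and 1.56 ± 0.05 log2 against 786-O, and FASN, the fatty acid synthase, by 0.69 ± 0.10 and 0.78 ± 0.10. In resistant A498 against A498, ACSS2 was at 0.10 ± 0.05 and FASN at 0.49 ± 0.10. Of the enzymes of carbon entry, 9 of 10 fell in resistant 786-O and 6 fell and 1 rose in resistant A498, both against 786-O. The direction was the opposite for resistant A498 against A498, in which 6 rose and 2 fell. GOT2, the mitochondrial aspartate aminotransferase, fell by 0.50 ± 0.05 and 0.59 ± 0.05 log2 in resistant 786-O and resistant A498 against 786-O. It was at -0.02 ± 0.05 in resistant A498 against A498. ME3, a mitochondrial malic enzyme, had 146, 132 and 187 reads in 786-O, 7, 8 and 6 in resistant 786-O, 7, 1 and 2 in A498 and 1, 4 and 0 in resistant A498. Of the carriers, 4 fell and 1 rose in resistant 786-O, and 5 of 7 fell in resistant A498, both against 786-O, and 5 fell and 1 rose in resistant A498 against A498. Against 786-O, SLC25A10, the dicarboxylate carrier, fell by 0.85 ± 0.07 and 1.32 ± 0.07. SLC25A13, an aspartate-glutamate carrier, fell by 0.59 ± 0.05 and 0.62 ± 0.05, and MPC2, a subunit of the pyruvate carrier, by 0.77 ± 0.06 and 0.26 ± 0.06. SLC25A22, a glutamate carrier, fell in resistant A498 by 0.49 ± 0.06 and was at 0.09 ± 0.06 in resistant 786-O, again against 786-O. In resistant A498 against A498, SLC25A10 was at -0.32 ± 0.08, SLC25A13 at -0.31 ± 0.05, MPC2 at 0.01 ± 0.06 and SLC25A22 at -1.24 ± 0.06.

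The median log2 fold change in resistant 786-O and resistant A498 against 786-O was -0.32 and 0.04 for the Krebs cycle list, 0.30 and 0.41 for the cytosolic list, -0.46 and -0.28 for carbon entry, and -0.21 and -0.29 for the carriers. In resistant against parental A498 it was 0.16 for the Krebs cycle list, -0.32 for the cytosolic list, 0.53 for carbon entry and -0.32 for the carriers, so that the sign of the cytosolic and carbon entry medians turned with the parental line taken as reference. For all genes tested it was 0.03 and 0.00 in resistant 786-O and resistant A498 against 786-O, of which 35% and 31.6% passed as higher and 33.5% and 32.1% as lower. In resistant against parental A498 the median of all genes was -0.004, and 72.7% passed in either direction.

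**Figure D4:**
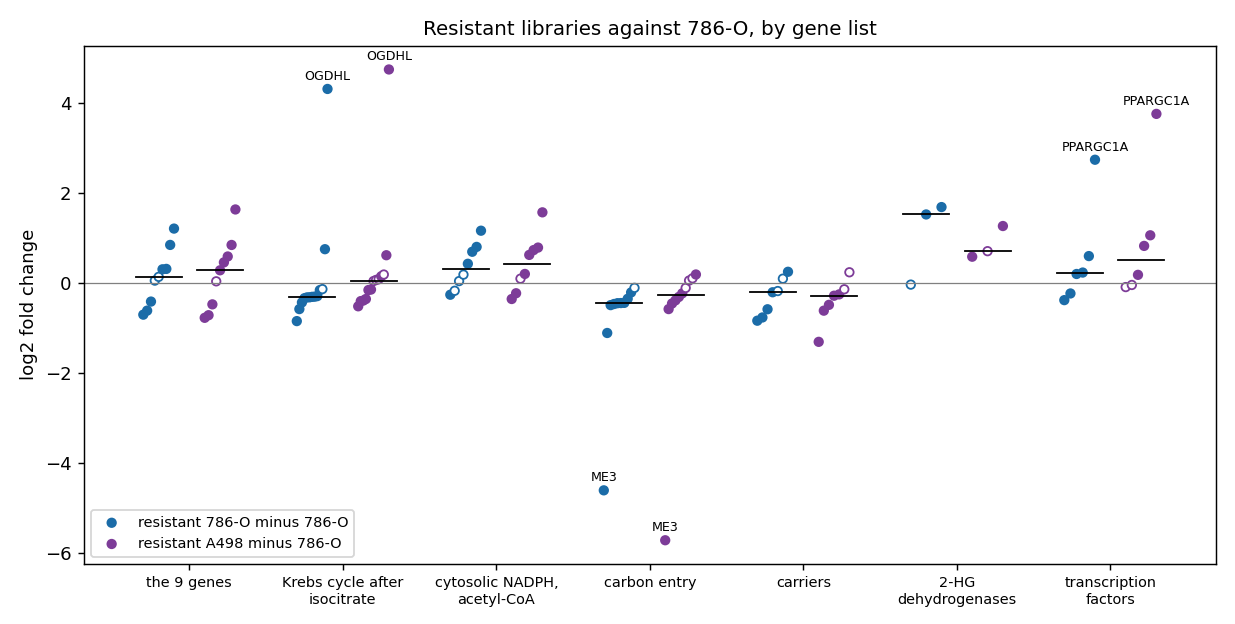
Log2 fold change of the resistant groups against 786-O for the 9 genes and 6 other lists, 1 point per gene and a bar at the median. Filled points passed an edgeR adjusted p of 0.05 and open points did not, and for the 9 genes in resistant 786-O, and IDH1 in both groups, the filling is a description. The carbon entry and carrier medians lie below 0 in both groups against 786-O, and ME3, with at most 8 reads in each resistant library, has a fitted value that depends on the prior count.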

How the data were processed

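Counts of mRNA-seq reads were analysed for 12 libraries, 3 for each parental line (786-O and A498) and each resistant line, grouped by their titles. The authors deposited raw counts per gene, not normalized. Per the labels and the study's methods, stranded poly(A) libraries had been demultiplexed with bcl2fastq 2.19.0, trimmed with Trimmomatic 0.36.6, aligned to GRCh38 with HISAT2 2.1.0 and counted by strand over GENCODE 33 exons with featureCounts 1.6.3. Of 45478 genes, 195 had no symbol. Positions, exon lengths and overlaps came from GENCODE 44, and upstream sequences from RefSeq, in which all 9 genes matched with 11 starts.

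Here, in R 4.3.3 with edgeR 4.0.16 and limma 3.58.1, 19929 genes passed filterByExpr and were normalized by TMM. A single quasi-likelihood model of 4 group means gave 5 contrasts, with Benjamini-Hochberg adjustment over all genes tested and a threshold of 0.05. Log2 fold changes use a prior count of 0.125, and CPM is given with the SD of 3 libraries. The raw-count test for genes of interest in the study's methods was not used here. The code was tested on simulated data. Alternatives were DESeq2 1.42.0 (size factors and Wald test), library size alone, no filter, at least 10 counts in every library, each pair of groups alone, a block for the replicate number, a prior count of 2, a correction for GC content and exon length, thinning to the smallest library, and each replicate left out.

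The 9 genes and the other lists were chosen with earlier results of these data known. Named genes were the 9, in each other list the 3 with the largest absolute change against 786-O in either resistant group (all of a list of 3, and all transcription factors), and the 5 genes closest in pattern to IDH1 and to PCK2. Some genes that this rule names are not reported here, and the counts and medians of the lists include them.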

Additional observations from a re-analysis of the deposited data

Results flagged for a closer look

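For 5 of the genes reported here the change from the labelled parent went one way in every resistant 786-O library and the other way in every resistant A498 library. The value given is the log2 change in resistant from parental A498 minus that in resistant from parental 786-O, and the difference was not tested in any of them. It was -1.34 for IDH1, whose changes led to the choice of the 9 genes, and -0.41 for ACLY among them. Among the other lists it was 1.57 for SDHD, 0.53 for ATF4 and -4.41 for ADHFE1. ADHFE1, a hydroxyacid transhydrogenase, had at most 11 reads in any library of 786-O, resistant 786-O or resistant A498 and 14 to 30 in A498. For ACLY, the change in resistant 786-O was 0.13 ± 0.06 (SE). The lowest ACLY library of that group was at 524 CPM, against a highest of 522 CPM in 786-O. For IDH1, the A498 libraries were at 358 ± 19.4 CPM and those of 786-O at 105 ± 1.2 CPM (SD, n = 3), and the libraries labelled resistant A498 carried few of the transcripts particular to A498.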

How the results depend on the processing

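The counts of the 9 genes past the threshold stayed within 1.5 times their values under every alternative that was run, at 6 to 9 for 786-O against A498, 8 to 9 for resistant A498 against 786-O and 5 to 7 for resistant A498 against resistant 786-O. Directions reversed mainly with the trend of GC content and exon length removed: SLC25A1 went to 0.23 in 786-O against A498, 0.14 in resistant A498 against resistant 786-O, -0.23 in resistant against parental 786-O and 0.13 in resistant against parental A498. With the same setting, resistant A498 against resistant 786-O gave 0.11 for IDH3B, 0.16 for IDH3G and 0.29 for PCK2, all past the threshold, and resistant against parental A498 gave 0.15 for IDH2. Other values within 0.08 of 0 also changed sign: IDH2 in resistant against parental A498 (0.025) and IDH3G in 786-O against A498 (-0.004) under library size alone, IDH3A in resistant against parental 786-O without replicate 2 of resistant 786-O (-0.015), SLC25A1 in resistant A498 against 786-O with the trend removed (-0.093) and without 786-O replicate 3 (-0.002), and CS and PCK2 between the resistant groups. The cause was not tested. Single calls also moved for PCK2, SLC25A1, IDH3A and IDH3G, as given with their values above. Replicate numbers are shared between groups but did not pair the libraries, with correlations of same-numbered deviations from -0.18 to 0.20, and the fit with the replicate block called 13497 genes in place of 13643 in resistant against parental 786-O and gave 1.20 for IDH1. At 826 reads or more per library, depth did not limit the detection of any of the 9 genes.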

Other observations

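D2HGDH, the mitochondrial enzyme that removes D-2-hydroxyglutarate, was at 6.78 ± 0.25 CPM in 786-O, 21.7 ± 1.5 in resistant 786-O, 7.31 ± 1.0 in A498 and 16.2 ± 0.72 in resistant A498 (SD, n = 3). Both resistant groups were above 786-O, by 1.68 ± 0.09 log2 in resistant 786-O (edgeR adjusted p = 7.2e-10) and by 1.26 ± 0.10 in resistant A498 (edgeR adjusted p = 2.8e-08).

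Of 6 transcription factors known to act on genes of this pathway, 4 rose and 2 fell in resistant against parental 786-O. In resistant A498 against 786-O, 4 of 6 rose. Of all genes tested, 35% and 31.6% passed as higher in these comparisons and 33.5% and 32.1% as lower. In resistant against parental A498, 3 factors rose and 2 fell, where 72.7% of all genes tested passed in either direction. PPARGC1A, a coactivator of mitochondrial genes, was at 1.10 ± 0.24 CPM in 786-O, 7.41 ± 0.25 in resistant 786-O, 0.732 ± 0.20 in A498 and 15.03 ± 0.55 in resistant A498. Against 786-O, SREBF2, a regulator of sterol synthesis, rose by 0.59 ± 0.06 log2 in resistant 786-O and 0.82 ± 0.06 in resistant A498. SREBF1, which acts on fatty acid synthesis, rose by 0.19 ± 0.07 and 1.05 ± 0.07 in these comparisons. SREBF1 was at 231 ± 3.1 CPM in A498, against 65.2 ± 1.9 CPM in 786-O, and it was lower in resistant than in parental A498 by 0.77 ± 0.07. ATF4, a factor of the amino acid response, fell by 0.39 ± 0.05 in resistant 786-O and was at -0.10 ± 0.05 in resistant A498 (edgeR adjusted p = 0.086), both against 786-O. NFE2L2, the antioxidant response factor, was at -0.24 ± 0.05 and 0.17 ± 0.05 against 786-O, and ESRRA, a nuclear receptor of mitochondrial genes, at 0.22 ± 0.08 and -0.05 ± 0.08. Against A498, resistant A498 was at 0.81 ± 0.06 for SREBF2, 0.14 ± 0.05 for ATF4, -0.55 ± 0.05 for NFE2L2 and 0.02 ± 0.09 for ESRRA.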
